A study of Mus musculus with 13 samples.

Results

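The genes described here encode the proteins of the cytosolic ribosome. They were taken by symbol from the deposited table of TPM, a length-scaled share of all transcripts of a library: Rpl, Rplp, Rps or Rpsa followed by the number and letter of the standard nomenclature. The rule found 76 genes among the 53465 rows of the table, 46 of the large subunit and 30 of the small subunit. All 76 were protein coding in GENCODE M21 and all were above 0 in every library. The study made ovarian tumors in C57BL/6 females that were 8 to 12 weeks old, by injecting plasmids into the ovary and electroporating it, a somatic mouse model abbreviated EPO-GEMM. The 10 MP tumors received a MYC transposon with its transposase and Cas9 with a guide against Trp53, are labelled Myc;p53-/- EPO-GEMM and were collected as whole tumor tissue at end point. The 3 WT ovaries came from non-treated mice. Both groups therefore share the strain and the sex, and the tumors differ from the ovaries by the transposon, the guide, the surgery and their cells. The age at collection is not given for either group in the sources used here. The labels also carry an IGO number, which was the same for all 3 ovaries and tumors 1 to 3, and took other values for tumors 4 to 6 and for tumors 7 to 10. What this number stands for is not given in the sources used here, and it is used below only as a label that divides the libraries.

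A ribosome is built from a small subunit, which reads the mRNA, and a large subunit, which joins amino acids. Each ribosomal protein is needed in about one copy per ribosome, and cells make these proteins from mRNAs that are among the most abundant they hold. The mRNAs begin with a run of pyrimidines, the terminal oligopyrimidine or TOP motif, through which mTORC1 and LARP1 control their translation. MYC is known to raise the transcription of ribosomal protein genes in many cell types.

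Windows around the start of transcription were searched for this feature and for promoter motifs. RefSeq (GRCm38.p6) windows were matched to 56 of the 76 members, 66 windows in all, each with 250 bases before the start and 50 after it. A run of at least 8 pyrimidines on the transcribed strand that reached within 20 bases of the start was found in 48.5% of the member windows and in 20.6% of all 21263 protein-coding windows. CGGAAG, the core bound by ETS factors, was in 62.1% of member windows against 21.1% of all, searched on both strands as were the other motifs. ATGGCG, part of the motif of YY1, was in 28.8% against 10.9%, and GGGCGG, the box bound by Sp1, was in 60.6% against 46.2%. The E-box CACGTG, which MYC and MAX bind, was in 12.1% against 7.84%. TATAAA was in 9.09% against 12.6%. None of these 5 motifs contains another, and a match is a description of the letters and not of a bound site. The 30 members with a pyrimidine run had log2 fold changes between tumors and ovaries from 0.56 to 1.83 with a median of 1.11, and the 26 members without one had values from 0.21 to 1.66 with a median of 0.93. Rpl12, among the largest changes, had a window without a run, and Rpl31, among the smallest, had a run of 13 bases. The 6 windows of 30 bases printed next were picked as examples. They cover members with some of the largest changes (Rps12, Rps10, Rplp2, Rplp0), a middle one (Rps6) and the smallest (Rpl23). They begin 12 bases before the annotated start, are written in the direction of transcription, and have the pyrimidine run in capitals where one was found.
Rps12, chr10:23787192-23787221, minus strand: cgtcatgcggccaccgccggCCTTTTCCCC
Rps10, chr17:27635227-27635256, minus strand: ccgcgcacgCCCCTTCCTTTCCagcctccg
Rplp2, chr7:141447639-141447668, plus strand: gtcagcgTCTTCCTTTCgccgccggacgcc
Rps6, chr4:86857350-86857379, minus strand: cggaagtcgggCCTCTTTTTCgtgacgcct
Rplp0, chr5:115559455-115559484, plus strand: ttcgggtttcgaggaccgcctggttctcct
Rpl23, chr11:97782422-97782451, minus strand: aggtccggtcacgtggctgagtgggcgggg

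The libraries were polyA-selected and held 31445004 to 64013840 counted reads in the ovaries and 3892690 to 19906507 in the tumors. In the tumor labelled MP2 the 10 largest rows of the table held 55.1% of all TPM, against 7.92% to 20.6% in the other 9 tumors. The share of TPM held by the members is therefore also given without MP2. The Trp53 row was at 80.7, 85.0 and 85.4 TPM in the ovaries and at 4.30 to 26.0 TPM in 9 tumors, but at 187 TPM in the tumor labelled MP10. A guide can disrupt the protein and leave the RNA, so this row is only a partial check of the label. The mouse Myc row was at 126 to 129 TPM in the ovaries, at 24.7, 7.09 and 15.3 TPM in tumors 1 to 3, and at 51.7 to 419 TPM in the other 7 tumors. Whether reads from the transposon fell on this row is not given in the sources used here. Markers of ovarian cells were checked as lists. The 7 granulosa markers summed to 3622 to 6924 TPM in the ovaries and 5.36 to 1511 TPM in the tumors, and the 7 oocyte markers to 295 to 439 TPM against 1.38 to 22.8 TPM. The 6 epithelial markers, which define the cell type that such carcinomas are named for, summed to 237 to 267 TPM in the ovaries and to 5.67 to 1152 TPM in the tumors, with 8 tumors below every ovary.

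Ribosomal protein genes took a larger share of the RNA in every tumor than in any ovary. Their share of total TPM was 7.56%, 7.61% and 6.42% in the 3 WT ovaries, a mean of 7.20% ± 0.673 (SD, n = 3). In the tumors it ran from 10.7% in MP10 and 11.2% in MP5 to 23.6% in MP1 and 26.2% in MP3, with a mean of 17.01% ± 5.06 (SD, n = 10). The lowest tumor lay above the highest ovary, and the tumors differed among themselves by more than the gap between that pair. The tumor mean was 2.36 times the ovary mean. Without MP2 the tumor mean was 17.3% ± 5.29 (SD, n = 9). Tumors 1 to 3, which share the ovaries' IGO number, were at 23.6%, 14.6% and 26.2%, a mean of 21.4% ± 6.10 (SD, n = 3), or 2.98 times the ovaries. As a share of counted reads the members held 3.14% to 3.58% in the ovaries and 4.93% to 19.97% in the tumors. When the rows of the mitochondrial genome and the 10 largest other rows were taken out of each total, MP2 moved from 14.6% to 32.4%, the highest of all libraries. TPM is itself a share, so a rise of the members and a fall of the rest cannot be told apart. In bulk tissue, fewer cells of a type and less RNA per cell cannot be told apart either.

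**Figure D1:**
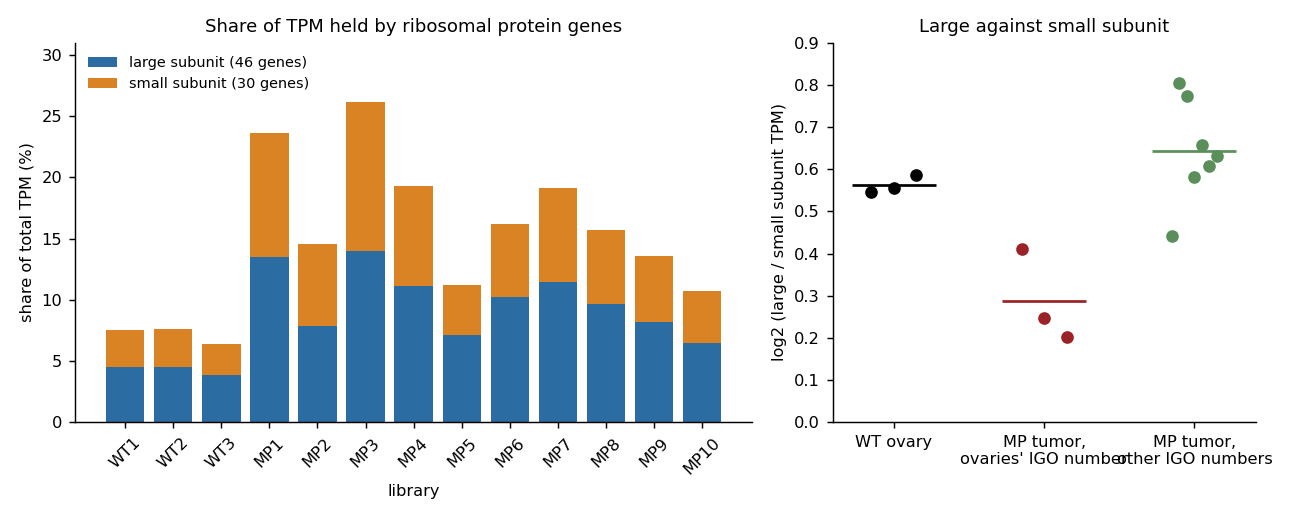
Left, share of total TPM (%) held by 46 large-subunit and 30 small-subunit genes in each of 13 libraries, as stacked bars from 0. Right, log2 ratio of summed large to summed small subunit TPM, 1 point per library with the mean as a line. The ovaries hold 6.42% to 7.61% and the tumors 10.7% to 26.2%, and the 3 tumors that share the ovaries' IGO number have the 3 lowest ratios, 0.20 to 0.41.

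Both subunits contributed. Large-subunit genes held 4.29% ± 0.378 of TPM in the ovaries and 9.96% ± 2.58 in the tumors, a 2.32-fold higher mean, and small-subunit genes 2.91% ± 0.295 and 7.05% ± 2.57, 2.43-fold higher (SD, n = 3 and 10). The log2 ratio of large to small subunit TPM was 0.55, 0.55 and 0.59 in the ovaries. Over the 10 tumors it averaged 0.54 ± 0.21 (SD, n = 10) against 0.56 ± 0.02 (SD, n = 3) in the ovaries, but single tumors ran from 0.20 to 0.80. Tumors 1 to 3, with the ovaries' IGO number, were at 0.41, 0.25 and 0.20, all below every ovary. The other 7 tumors were at 0.44 to 0.80, with a mean of 0.64 ± 0.12 (SD, n = 7). The balance between the subunits therefore separated tumors 1 to 3 from the other 7, but narrowly, with MP1 at 0.41 and MP4 at 0.44. The 2 other IGO numbers were not separated, since tumors 7 to 10, at 0.58 to 0.66, lay within the range of tumors 4 to 6. The average over all tumors did not differ from the ovaries by more than the spread.

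The next comparison asked which single members differed between the 10 tumors and the 3 ovaries. A linear model (limma, trended and robust) was fitted to log2(TPM + 1) of all 17277 rows with at least 1 TPM in at least 3 libraries, and a row was called at an adjusted P (Benjamini-Hochberg over all these rows) under 0.05. All 76 members passed this filter. The call was made for 41 members as higher and for 0 as lower, where the background over all rows was 2.51% called higher and 14.3% called lower. For members, limma gave 64 at an unadjusted P under 0.05 (5707 of all 17277 rows), and limma-voom on recovered reads also called 0 lower. The median log2 fold change was 1.08 over the members, 0.98 over the large and 1.21 over the small subunit, and -0.58 over all rows. Every member had a positive estimate, from 0.21 to 1.94, with standard errors of 0.25 to 0.56. The ratio of mean TPM in tumors to that in ovaries ran from 1.22 to 4.25 with a median of 2.30, and it was at least 2 for 50 members and at least 3 for 17. For 47 members (27 large, 20 small) every tumor lay above every ovary, which held for 3.02% of all rows. For 0 members every tumor lay below every ovary, which held for 16.4% of all rows.

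**Figure D2:**
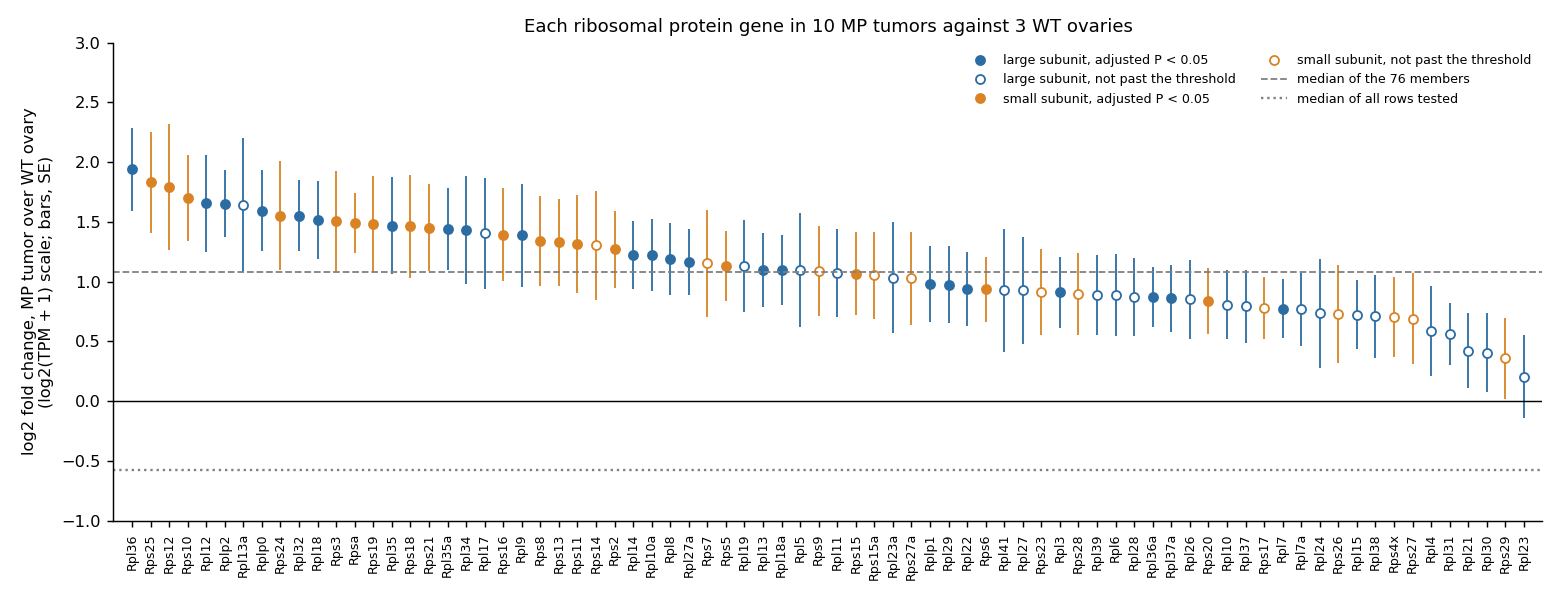
Log2 fold change of each of the 76 members between 10 MP tumors and 3 WT ovaries on the log2(TPM + 1) scale (vertical axis), ordered by size along the horizontal axis, with bars for the SE and filled symbols for limma adjusted P under 0.05. All 76 estimates lie above 0, around a median of 1.08, while the median of all rows tested lies at -0.58.

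The number of calls, though not the direction, depended on the 3 ovaries. With WT ovary 1, 2 or 3 left out, 11, 11 and 7 members were called higher and 0 lower, where 0.781%, 0.886% and 0.544% of all rows were called higher. Other scalings moved the split over all rows, which was 433 higher and 2463 lower: median-of-ratios scaling gave 1274 and 1897, quantile normalization 1904 and 2091, removal of the trend with gene length 1791 and 1781, and limma-voom 1876 and 4045. Of the members, these 4 called 36, 51, 58 and 66 higher. Median-of-ratios scaling put the median of all rows at -0.02 and that of the members at 1.80. Within the ovaries' IGO number, 3 tumors against 3 ovaries, 49 members were called higher and 0 lower where 6.44% of all rows were called higher and 57.3% lower, and the median of the members was 1.49. In that comparison 2 members had a negative estimate, Rpl23 and Rpl4 (Rpl4 is named after its value was seen).

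The largest fold changes belonged to Rpl36, Rps25, Rps12, Rps10 and Rpl12. Rpl36, a large-subunit protein, was at 1284, 1128 and 1076 TPM in the ovaries and between 2320 and 8088 TPM in the tumors with a median of 4868. No tumor came near the ovaries, and its log2 fold change was 1.94 ± 0.35 (SE; limma adjusted P = 0.00145). Rps25, a small-subunit protein that some viral and cellular internal ribosome entry sites need, was at 354, 341 and 289 TPM in the ovaries and 560 to 2825 TPM (median 1137) in the tumors. Its log2 fold change was 1.83 ± 0.42 (SE; limma adjusted P = 0.00832). Rps12 was at 881, 815 and 713 TPM against 938 to 9546 TPM (median 2775). The lowest tumor, MP5, was close to the ovaries and the highest, MP3, was far above the other 9, and the estimate was 1.79 ± 0.53 (SE; limma adjusted P = 0.0309). The call of Rps12 was lost after median-of-ratios scaling (limma adjusted P = 0.0553). Rps10, of the small subunit, was at 391, 364 and 334 TPM against 571 to 2438 TPM, with limma adjusted P = 0.00515. Rpl12, which forms the base of the stalk of the large subunit, was at 620, 633 and 522 TPM against 907 to 4449 TPM, with limma adjusted P = 0.0118.

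The smallest changes belonged to Rpl23, Rps29, Rpl30, Rpl21 and Rpl31, none of which passed the threshold. Rpl23, a large-subunit protein that can also bind MDM2, was at 1165, 1227 and 998 TPM in the ovaries and at 524 to 1865 TPM (median 1501) in the tumors. The groups overlapped, with 7 tumors above every ovary, and the estimate was 0.21 ± 0.35 (SE; limma adjusted P = 0.693). It was -0.10 after quantile normalization. Rps29 was at 2323, 2388 and 1945 TPM against 1428 to 4420 TPM (median 3377), with limma adjusted P = 0.462. Rpl30 was at 251, 276 and 210 TPM against 165 to 608 TPM (median 313), the highest value in MP10 and the lowest in MP2. Rpl21 was at 459, 473 and 389 TPM against 317 to 815 TPM. Rpl31 did not overlap, at 645, 701 and 628 TPM against 728 to 1458 TPM, but its log2 difference of 0.56 ± 0.26 (SE) had limma adjusted P = 0.142.

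Of the 5 members with the highest mean TPM, 4 rose. Rplp1 had the highest level of all members in the ovaries, at 7496, 7472 and 6382 TPM, and in 8 of the 10 tumors, with 5837 to 21859 TPM and a median of 15501 TPM. It is 1 of the acidic proteins of the stalk, which recruits elongation factors. Its log2 fold change was 0.98 ± 0.32 (SE; limma adjusted P = 0.0470), and in MP2 alone it lay below every ovary. Rplp0, the protein on which the stalk is anchored, was at 2607, 2708 and 2396 TPM against 3461 to 12159 TPM (median 8403), with a log2 fold change of 1.59 ± 0.34 (SE; limma adjusted P = 0.00463). Rplp2, the partner of Rplp1, was at 632, 631 and 544 TPM against 987 to 2564 TPM (median 2108), with 1.65 ± 0.28 (SE; limma adjusted P = 0.000808). Within the ovaries' IGO number, Rplp0 and Rplp2 were called at 1.83 and 1.58 (limma adjusted P = 0.00396 and 0.0139), while Rplp1 was at 0.58 and was not called (limma adjusted P = 0.282). Rpl8 was at 3179, 3252 and 2817 TPM against 3458 to 10532 TPM, and rose with limma adjusted P = 0.0140, but its log2 fold change of 0.97 within the ovaries' IGO number was not called (limma adjusted P = 0.0794). Rps15 was at 3204, 3178 and 2664 TPM against 2709 to 10098 TPM, and rose with limma adjusted P = 0.0480. After median-of-ratios scaling Rps15 was not called (limma adjusted P = 0.0695). Rpl17 was at 2995, 2877 and 2345 TPM against 3402 to 19238 TPM, with no overlap but limma adjusted P = 0.0508. It was called within the ovaries' IGO number, at 2.43 (limma adjusted P = 0.000458). These 5 members with the highest mean (Rplp1, Rpl17, Rplp0, Rpl8 and Rps15) held 25.6% to 25.9% of the members' TPM in the ovaries and 22.5% to 31.1% in the tumors.

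**Figure D3:**
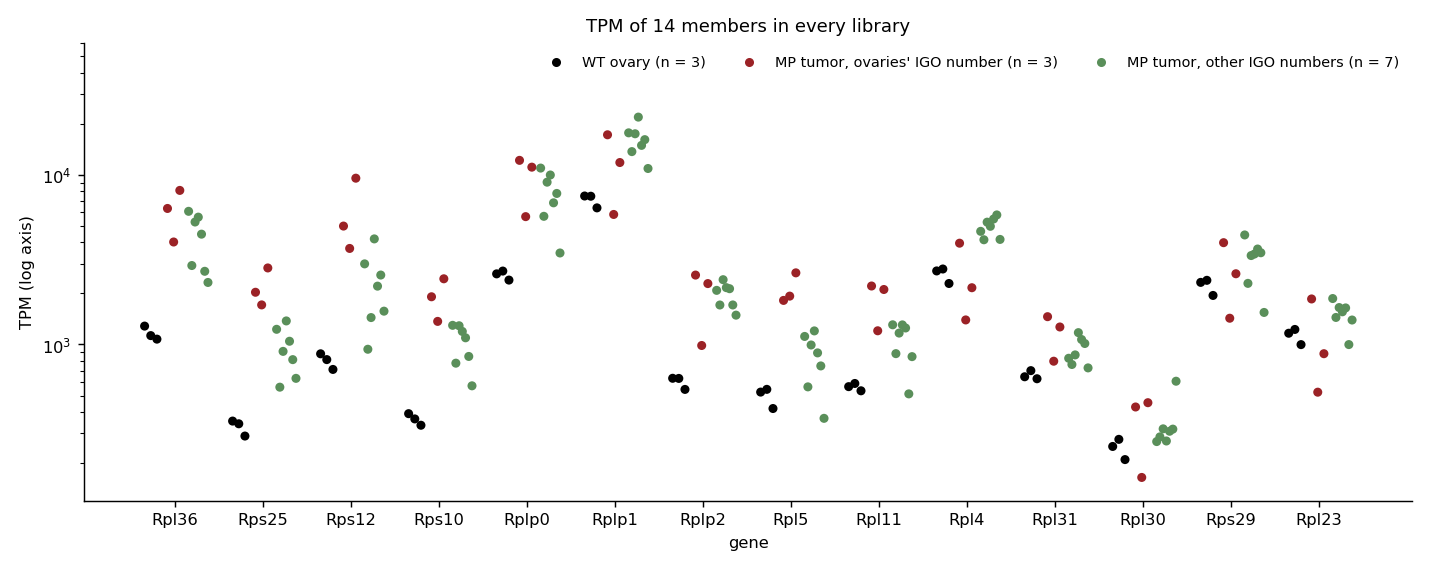
TPM of 14 members (log axis) in every library, 1 point per library: 3 WT ovaries, 3 MP tumors with the ovaries' IGO number and 7 other MP tumors. Rpl36, Rps25 and Rps10 show no overlap between ovaries and tumors, Rpl23 and Rps29 overlap, and Rpl5 is higher in those 3 tumors than in the other 7. Rpl4 was added after its values were seen.

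Some members have roles outside protein synthesis. Rpl5 and Rpl11 form, with ribosomal RNA, the particle that inhibits MDM2 when ribosome assembly is disturbed. Rpl5 was at 524, 544 and 420 TPM in the ovaries and 367 to 2643 TPM (median 1054) in the tumors, 9 of them above every ovary, with limma adjusted P = 0.123. Rpl11 was at 565, 589 and 534 TPM against 512 to 2211 TPM (median 1228), with limma adjusted P = 0.0560. MP10 was the lowest tumor for Rpl5 and MP9 for Rpl11. Rpl22, which is mutated or deleted in some cancers, was at 506, 497 and 418 TPM against 650 to 1655 TPM, and rose with limma adjusted P = 0.0491. Its call was lost after median-of-ratios scaling (limma adjusted P = 0.0802). Rpl10, on the X chromosome and among the last proteins to join the large subunit, was at 699, 670 and 563 TPM against 715 to 2040 TPM, with limma adjusted P = 0.0684. Rpl39, a small protein of the exit tunnel, was at 467, 452 and 398 TPM against 486 to 1513 TPM, with limma adjusted P = 0.0810. Rpl41, the shortest protein of the ribosome, was at 1153, 1216 and 1061 TPM against 930 to 6494 TPM, and did not pass the threshold (limma adjusted P = 0.216). Of the 5 in this group that did not pass over all 13 libraries, 4 were called within the ovaries' IGO number. There Rpl5 was at 2.09, Rpl11 at 1.66, Rpl39 at 1.56 and Rpl41 at 1.96 on the log2 scale (limma adjusted P = 0.000909, 0.00446, 0.00290 and 0.00352), and Rpl10 was at 1.02 and not called (limma adjusted P = 0.0701).

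Of the small-subunit genes listed for their roles, Rpsa, Rps6 and Rps19 rose. Rpsa, which also serves as a laminin receptor, was at 809, 872 and 746 TPM in the ovaries and 1536 to 3052 TPM (median 2472) in the tumors, with a log2 fold change of 1.49 ± 0.25 (SE; limma adjusted P = 0.000808). Rps6, the target of S6 kinases downstream of mTORC1, was at 799, 820 and 658 TPM against 934 to 1903 TPM (median 1623), and rose by 0.94 ± 0.27 (SE; limma adjusted P = 0.0292). Rps19, the gene most often mutated in Diamond-Blackfan anemia, was at 236, 240 and 204 TPM against 312 to 1786 TPM (median 575), and rose by 1.48 ± 0.40 (SE; limma adjusted P = 0.0202). Rps27a, made as a fusion with ubiquitin, was at 886, 895 and 764 TPM against 796 to 3736 TPM (median 1770), with limma adjusted P = 0.0810, and was called within the ovaries' IGO number, at 1.70 (limma adjusted P = 0.00353). The rises of Rpsa and Rps6 were close to these within the ovaries' IGO number, at 1.50 and 0.92, where limma adjusted P was 0.00795 and 0.0624.

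The rise was not even across members. For this comparison the median log2(TPM + 1) of the 76 members was subtracted in each library, so that a value is a difference from the median member. Rpl36 (0.85 ± 0.18), Rps25 (0.74 ± 0.28), Rps10 (0.61 ± 0.23), Rplp2 (0.56 ± 0.23), Rplp0 (0.50 ± 0.19) and Rpl32 (0.46 ± 0.15, all SE) were above the median member in the tumors, and Rpl23 (-0.89 ± 0.35), Rps29 (-0.73 ± 0.27) and Rpl31 (-0.53 ± 0.21) were below it. These 6 and 3 calls by limma stand against 0.37% of all rows called higher and 55.2% called lower on the same scale. Their adjusted P values lay between 0.00232 for Rpl36 and 0.0475 for Rplp2. The calls depended on single libraries: with any 1 ovary left out, 1 member was called above and 0 below, and without tumor 1, 2 members above and 1 below. Without tumor 7 the counts were 3 and 1, and without tumor 2, 1 member was called below. Within the ovaries' IGO number 26 members were above and 19 below the median member, where 1.23% of all rows were called higher and 87.5% lower on that scale. Rplp2 was not among them, at 0.19 (limma adjusted P = 0.412). Most rows are lower on this scale, so adjustment over all rows moves the P values of members little. At an unadjusted P under 0.05 limma gave 11 members over all 13 libraries and 45 within the ovaries' IGO number. Over all 17277 rows these counts were 11017 and 15393. Rpl32 was at 1679, 1620 and 1346 TPM in the ovaries and 2727 to 7656 TPM in the tumors. The SD of the log2 fold change over the members was 0.37, compared with a median of 1.08. The SD was 0.76 and the median 1.49 within the ovaries' IGO number.

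Evenness differed from tumor to tumor. In each tumor, the difference of each member from the ovary mean was taken on the log2(TPM + 1) scale and its SD was computed over the 76 members. It was 0.36 to 0.48 in the 7 tumors with other IGO numbers, and 0.55, 0.88 and 0.94 in tumors 1, 2 and 3. In the ovaries it was 0.04 to 0.05, where each ovary is part of the mean it is compared with. MP1 and MP8 had all 76 members above every ovary. MP2 had 62 above and 11 below, MP10 had 67 above and 7 below, and MP9 had 68 above and 4 below. The same counts over all rows are not given for single tumors. What is particular to the members therefore cannot be read from these counts. The effective number of members, the exponential of the Shannon entropy of their shares, was 52.7 to 52.8 in the ovaries and 47.2 to 52.9 in the tumors. MP1 was above every ovary and the other 9 tumors were below, so that the summed TPM was spread over slightly fewer genes in those 9.

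Tumors 1 to 3, which carry the ovaries' IGO number, were then compared with the other 7, a comparison that uses no ovary. On the plain scale 20 members were higher and 1 was lower (limma, adjusted P under 0.05), where 1.29% of all rows were called higher and 30.1% lower. The median difference was 0.51 for the members, 0.33 for the large and 0.89 for the small subunit, and -0.84 for all rows. The number called higher was 59 after median-of-ratios scaling and 37 after the trend with gene length was removed, both with 0 lower, where 14% and 8.71% of all rows were called higher and 9.71% and 8.95% lower. The 1 lower member was Rpl4, a large-subunit protein of the exit tunnel, at 3952, 1395 and 2160 TPM in tumors 1 to 3 and 4141 to 5798 TPM in the other 7, with a log2 difference of -1.10 (limma adjusted P = 0.0203). It was named after its value was seen. Under the median-of-ratios and length settings it was not called.

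Relative to the median member, 17 members were higher and 14 lower in the 3 tumors than in the other 7, against 0.55% and 38.6% of all rows. Here too the adjustment was weak, with 39 members at an unadjusted P under 0.05 by limma (8905 of all 17277 rows). The small subunit had 9 higher and 5 lower, the large subunit 8 and 9. Of the members named by rule, those higher were Rpl41 (1.05 ± 0.29), Rpl17 (1.05 ± 0.22), Rps12 (1.03 ± 0.31), Rpl5 (1.00 ± 0.27), Rps25 (0.84 ± 0.23) and Rpl12 (0.78 ± 0.22, all SE). Those lower were Rpl23 (-1.06 ± 0.28), Rplp1 (-0.99 ± 0.20), Rpl8 (-0.73 ± 0.23) and Rps29 (-0.71 ± 0.25). The extremes, named after their values were seen, were Rpl13a, at 1.43 ± 0.29, and Rpl4, at -1.52 ± 0.26. Rpl13a was at 802, 559 and 1451 TPM in tumors 1 to 3 and at 159 to 359 TPM in the other 7. Rps24, at 1.07 ± 0.25, was at 1776, 1707 and 2956 TPM against 494 to 1022 TPM. Within the 3 tumors the members departed from the mean of the tumors in a similar way. Over the 76 members, after the library median and the mean of the 10 tumors were subtracted, Pearson's r was 0.55 to 0.84 for the 3 pairs of these tumors, -0.28 to 0.75 for the 21 pairs of the other 7, and -0.83 to 0.18 for the 21 mixed pairs. These correlations are across the genes of single libraries and are given as a description. Because the mean of the same 10 tumors was subtracted, negative values for the mixed pairs are partly set by that step. In the 3 tumors the mouse Myc row was lower than in the other 7 (log2 difference -3.46 ± 0.63 SE, limma adjusted P = 0.00164), and these 3 libraries held 10564737 to 19906507 reads against 3892690 to 17178256. Of the markers of other cell types, the endothelial list had most of its members called in this split. In the 3 tumors 4 of 5 endothelial markers, 1 of 7 granulosa, 1 of 6 theca and luteal, 1 of 6 fibroblast and 1 of 4 leukocyte markers were lower and 0 higher, and of the oocyte, epithelial, mesothelial, smooth muscle and erythroid markers 0 passed (limma, adjusted P under 0.05), where 30.1% of all rows were called lower. In every list but the endothelial one the share called lower was under that of all rows. The endothelial list summed to 6.04 to 17.4 TPM in the 3 tumors and 21.7 to 189 TPM in the other 7, and the fibroblast list to 87.2 to 244 TPM and 213 to 4632 TPM. The part of any of these in the member pattern was not tested, and the IGO number and whatever else sets these 3 tumors apart cannot be told apart.

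**Figure D4:**
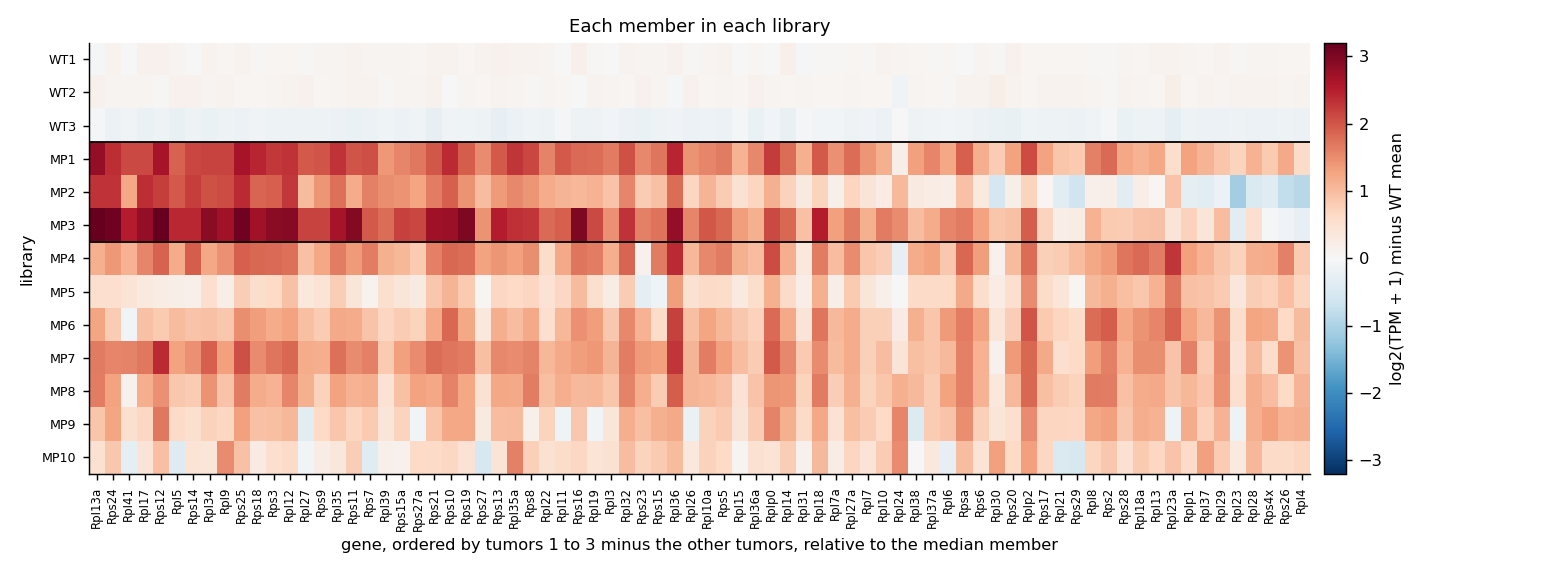
Each of 76 members (horizontal axis, ordered by the difference between tumors 1 to 3 and the other tumors relative to the median member) in each of 13 libraries (vertical axis), colored by log2(TPM + 1) minus the mean of the 3 WT ovaries. Tumors 1 to 3 run from strong to weak along the order, with values below the ovaries at the right end for MP2 and MP3, while the other 7 tumors show a more even rise.

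Features of the annotated transcripts were only weakly related to the fold changes. Across the 76 members, Pearson's r of the tumor against ovary log2 fold change was 0.17 with the exon length used for TPM, -0.02 with the length of the main transcript, 0.26 with GC content and 0.21 with log2 mean TPM. These are descriptions across genes. The exon length ran from 404 to 6270 bases with a median of 1776, and was up to 12.1 times the main transcript, so that the TPM of some members understates their level per transcript. Many members have close copies in the genome. Of the 76-base stretches of the main transcript, as long as the reads, a median of 49.0% also occurred in the transcript of another gene, and the share was over 50% for 37 members. How reads that match several genes were counted is not given in the sources used here. The 12 members with under 20% shared had a median log2 fold change of 1.10, with 9 called higher, and the 11 members with at least 80% shared had a median of 0.94, with 6 called higher.

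The rows of Rpl24 and Rpl23a stood apart in level. Rpl24 was at 1.70, 1.37 and 1.59 TPM in the ovaries and 1.11 to 6.58 TPM in the tumors, and Rpl23a at 15.3, 16.1 and 11.4 TPM against 12.4 to 73.0 TPM. They were named after their values were seen. All other members were at 113 TPM or more in the ovaries on average. In Rpl24, 80.9% of the 76-base stretches were shared and 47.0% of the exon bases were overlapped by another gene, and in Rpl23a 81.7% and 62.3%. The levels of these 2 rows are uncertain, and neither passed the threshold.

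Ribosomal proteins whose symbols fall outside the rule were listed separately, 14 genes of which 12 passed the filter, 3 of them higher and 1 lower. Fau, which encodes a small-subunit protein fused to a ubiquitin-like one, was at 910 ± 56.2 TPM (SD, n = 3) in the ovaries and 1397 to 3863 TPM in the tumors, and rose by 1.29 ± 0.32 (SE; limma adjusted P = 0.0137). Rpl7l1, a paralog of Rpl7, rose by 0.94 ± 0.29 (SE; limma adjusted P = 0.0396), but was not called within the ovaries' IGO number (limma adjusted P = 0.0563). Rps4l, a paralog of Rps4x, fell by 2.90 on the log2 scale (limma adjusted P = 0.0141), from 27.9 ± 9.65 TPM to a tumor median of 1.42 TPM. Rps3a1, the main Rps3a gene of the mouse, was at 2408 ± 292 TPM against 2206 to 4929 TPM, with limma adjusted P = 0.145. Rps27l, a p53 target in other settings, was at 398 ± 24.8 TPM against 330 to 2659 TPM, with limma adjusted P = 0.187, and was called within the ovaries' IGO number, at 2.14 (limma adjusted P = 0.00308). Rpl22l1, the paralog of Rpl22, was at 160 ± 11.7 TPM against 33.3 to 383 TPM, with 4 tumors above every ovary and 6 below. Rpl39l was at 3.28 ± 0.759 TPM against 0 to 11.1 TPM, and Rpl36al at 14.9 ± 2.00 TPM against 4.75 to 45.8 TPM. The near-identical copies Rps3a2, Rps3a3 and Rps27rt had log2 fold changes of 0.61, 0.31 and -0.69, none past the threshold. Rpl3l was at 0 to 11.2 TPM and Rpl10l listed at 0 in every tumor, and neither was tested. Of 288 rows named as ribosomal protein pseudogenes, 102 were tested, 4 higher and 1 lower (2.51% and 14.3% of all rows), and 37 were higher and 8 lower within the ovaries' IGO number (6.44% and 57.3% of all rows). Together they held 0.119% to 0.153% of TPM in the ovaries and 0.126% to 0.277% in the tumors.

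Other genes of the pathway were described by lists. Of 23 translation factors and other genes with TOP mRNAs, 6 rose and 0 fell, with a median log2 fold change of 0.61, where 2.51% of all rows were higher and 14.3% lower. Within the ovaries' IGO number 10 of the 23 were higher and 6 lower, with a median of 0.60, where 6.44% of all rows were higher and 57.3% lower. Npm1, a nucleolar chaperone, rose by 1.81 ± 0.39, Eef1b2, an elongation factor subunit, by 1.40 ± 0.31 and Nap1l1, a histone chaperone, by 1.32 ± 0.32 (SE; limma adjusted P = 0.00527, 0.00694 and 0.0102). Of 34 tested genes for the assembly and export of subunits, 7 rose and 0 fell, with a median of 0.75. Of the 34, 8 were higher and 3 lower within the ovaries' IGO number, with a median of 0.39. Nop56, a core protein of snoRNA particles, rose by 2.16 ± 0.31, Gnl3, a nucleolar GTPase, by 2.11 ± 0.31 and Dkc1, the pseudouridine synthase, by 1.49 ± 0.33 (SE; limma adjusted P = 0.000186, 0.000208 and 0.00588). Of 13 genes of mTORC1 and LARP1, which control the translation of TOP mRNAs, 0 rose and 0 fell by limma, and the median was -0.24. Within the ovaries' IGO number, 10 of these 13 were lower, with a median of -1.97 where the median of all rows was -1.19. Mtor itself was at 36.4 ± 1.74 TPM in the ovaries and 4.42 to 44.8 TPM in the tumors (limma adjusted P = 0.129). Of the 4 genes of the p53 arm, Cdkn1a fell, by 2.62 on the log2 scale (limma adjusted P = 0.0327). After median-of-ratios scaling Cdkn1a was not called (limma adjusted P = 0.0624). Mdm4, an inhibitor of p53, was at 25.8 ± 5.78 TPM (SD, n = 3) against 3.39 to 20.7 TPM without passing the threshold over all 13 libraries. Of these 4 genes, 3 were lower within the ovaries' IGO number, with a median of -2.74, among them Mdm4 at -2.31 and Trp53 at -3.41 (limma adjusted P = 0.000388 and 0.000181). Of 10 proliferation genes 4 rose and 0 fell, with a median of 1.23, and within the ovaries' IGO number 5 were higher and 1 lower, with a median of 1.08. Ccnb1, Cdk1 and Birc5, which act in mitosis, rose by 1.65, 1.56 and 1.56. Of 77 tested mitochondrial ribosomal protein genes 5 rose and 0 fell, among them Mrpl15, Mrpl28 and Mrpl3 at 1.63, 1.54 and 1.17, and the median was 0.56, compared with 1.08 for the cytosolic members. There were 23 of the 77 higher and 0 lower within the ovaries' IGO number, with a median of 0.76.

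**Figure D5:**
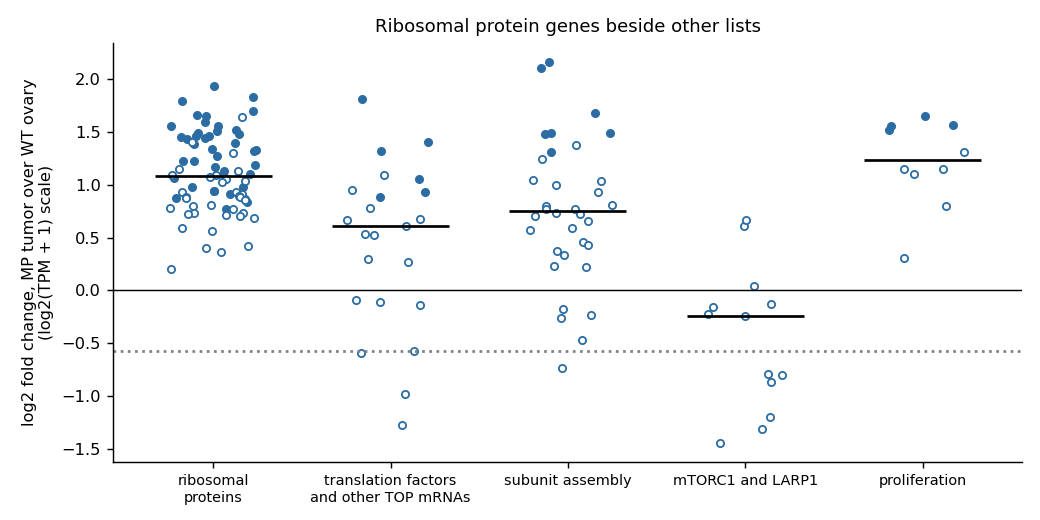
Log2 fold change between 10 MP tumors and 3 WT ovaries on the log2(TPM + 1) scale for 76 ribosomal protein genes and 4 other lists, 1 point per gene, filled where limma adjusted P was under 0.05, with the median of each list as a line and that of all rows as a dotted line. The medians are 1.08 for ribosomal proteins, 0.61 for translation factors and other TOP mRNAs, 0.75 for subunit assembly, -0.24 for mTORC1 and LARP1 and 1.23 for proliferation, and every ribosomal protein gene lies above 0.

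The rows whose levels were most like the mean of the members over all 13 libraries were sought among 9382 other rows with a mean of at least 10 TPM. The 10 with the largest Pearson's r of log2(TPM + 1) were Mrpl3 (r = 0.99), Eef1b2 (0.98), Fau (0.97), Mrpl28, Nip7, Eif3k, Abraxas1, Aimp2, Snrpd2 and Ndufaf6 (0.94 for the last 7). Fau encodes a ribosomal protein, Eef1b2 and Eif3k translation factors, Nip7 an assembly factor of the large subunit, and Mrpl3 and Mrpl28 mitochondrial ribosomal proteins. The correlation includes the difference between ovaries and tumors, and is given as a description over 13 libraries.

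Other cell types differed between the groups as well, and their values stand beside the rise of the members. All 7 granulosa, 5 of 6 theca and luteal, all 7 oocyte, 3 of 5 endothelial and 4 of 5 smooth muscle markers were lower in the tumors (limma, adjusted P under 0.05). Over all rows, 14.3% were called lower and 2.51% higher in this comparison. Of the epithelial, mesothelial and fibroblast markers, 3 of 6, 1 of 3 and 2 of 6 were lower, and none of these lists had a member called higher. For leukocytes 0 of 4 tested rows passed in either direction, and the list summed to 68.7 to 77.3 TPM against 9.70 to 103 TPM. Of 5 erythroid markers 2 were higher and 0 lower, summing to 226 to 432 TPM in the ovaries and 451 to 6177 TPM in the tumors. More markers were lower within the ovaries' IGO number, where 57.3% of all rows were: all 7 granulosa, 6 theca and luteal, 7 oocyte, 5 endothelial, 6 fibroblast, 3 mesothelial and 4 leukocyte markers tested, 4 of 5 smooth muscle and 4 of 6 epithelial markers. The part of the cell composition in the rise of the ribosomal protein genes was not tested.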

How the data were processed

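RNA from whole tumors and ovaries was polyA-selected and sequenced as 76 bp single-end reads, per the labels. The authors deposited 1 table of TPM, scaled to the exon length of each gene on GRCm38. Per the submitters' processing notes, Trimmomatic 0.36, STAR 2.5.3a, featureCounts 1.6.3 and FastQC 0.11.5 were used, whereas the labelled extraction protocol names a human build, HTSeq and RPKM. The deposited rows carry mouse identifiers, and 96.2% have GENCODE M21 coordinates, including 69 of the 76 members. Reads were recovered from TPM and length, and 100% of values came out whole in each library.

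TPM were analyzed on the log2(TPM + 1) scale with limma 3.58.1 (R 4.3.3), trended and robust, in rows with at least 1 TPM in at least 3 libraries, with Benjamini-Hochberg adjustment over all 17277 rows. This scale understates changes of low genes. On simulated data for this comparison, with 200 of 17277 rows changed by 3 on the log2 scale, 69.5% were recovered and 7 unchanged rows were called. The simulation gave both groups the same spread, although the ovaries varied less than the tumors. It changed only rows of higher level, and no member changed by more than 1.94. These rates therefore do not describe the members. Shares, ratios and spreads were summarized per library with Python 3.11.15 and pandas 2.3.3, and are given without a test. Nothing in the labels says that the samples of a group came from separate animals, so P values measure the spread between samples.

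The members and lists were chosen with earlier results of these data known. Named members were the 5 largest and 5 smallest log2 fold changes, the 5 highest mean TPM, 13 members listed for their roles, and the 3 most and 3 least relative to the median member by the moderated statistic, with any member called lower. Outside the members, the ribosomal proteins outside the rule were named except 1 that is not reported here, up to 3 genes of each other list by the moderated statistic, and the 10 rows most like the members' mean. Alternatives covered the pseudocount (0.1), the filter (none, or 5 TPM), scaling, gene length, IGO number, a replicate block, the variance model, recovered reads and leaving out each library.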

Additional observations from a re-analysis of the deposited data

Results flagged for a closer look

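In each measure over the 10 tumors, the gap between an extreme library and its nearest neighbor was compared with the whole range by Dixon's 95% criterion, for 91 measures, of which 18 were beyond it. Chance would give about 1 in 20, or 4.55 here, for independent and normally distributed measures. TPM and its sums need not meet this, and every flagged value was at the high end, so no excess over chance is read from it. The library labelled MP3 held 5 ribosomal protein genes far above the other tumors: Rps12 at 9546 TPM (next 4986), Rpl13a at 1451 TPM (next 802), Rps24 at 2956 TPM (next 1776), Rps19 at 1786 TPM (next 877) and Rpl10 at 2040 TPM (next 1416). In the library labelled MP2 the 10 largest rows held 55.1% of TPM (next 20.6%) and the mitochondrial genome 15.4% (next 5.56%). In MP10, Trp53 was at 187 TPM (next 26.0), Mtor at 44.8 TPM (next 25.0) and Rps4l at 20.5 TPM (next 9.22). In MP1, Rpl39l was at 11.1 TPM (next 1.24), and in MP9, Cdkn1a was at 82.3 TPM (next 37.2).

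The summed marker lists also had tumors apart from the rest. In MP4 the oocyte markers summed to 22.8 TPM (next 11.3) and the epithelial markers to 1152 TPM (next 464). In MP9 the mesothelial markers summed to 540 TPM (next 88.8) and the fibroblast markers to 4633 TPM (next 2428). In MP5 the smooth muscle markers summed to 1267 TPM (next 351) and the leukocyte markers to 103 TPM (next 59.2). MP5, MP9 and MP10 had the 3 lowest shares of TPM held by ribosomal protein genes, 11.2%, 13.6% and 10.7%.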

How the results depend on the processing

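No alternative called a member lower in tumors, and the count called higher stayed within 1.5 times the main 41 except with limma-voom on recovered reads, which gave 66, and when an ovary was left out. Leaving out 1 library at a time gave 7 to 52 members higher, 0 lower, 1 to 6 above and 0 to 4 below the median member, median changes of 1.00 to 1.14, a spread of 0.33 to 0.40, large minus small subunit medians of -0.29 to -0.14, share differences of 8.80 to 10.5 percentage points (main 9.82) and log2 subunit ratio differences of -0.06 to 0.01 (main -0.03). The median change moved to 1.80 with median-of-ratios scaling and to 1.51 with the length trend removed. The counts above and below the median member were 26 and 19 within the ovaries' IGO number, 23 and 18 with the IGO number as covariate, 1 and 0 without trend and robust fitting, and 3 and 0 with limma-voom. The first 2 settings also moved the spread to 0.76 and the large minus small median from -0.24 to -0.51. Within the ovaries' IGO number the log2 subunit ratio difference was -0.28.

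Replicate numbers did not pair the samples (correlations of deviations -0.10, -0.02 and 0.00 for numbers 1 to 3). A replicate block, which leaves tumors 1 to 3 as informative, gave 46 members higher (1087 of all 17277 rows higher and 9803 lower), 22 above and 17 below the median member, a spread of 0.76 and a large minus small median of -0.51. Rpl23 turned negative in 4 settings, at -0.10 with quantile normalization and -0.24 within the ovaries' IGO number, with the IGO covariate and with the replicate block, never past the threshold. The comparison of tumors 1 to 3 with the others gave 59 higher and 0 lower with median-of-ratios scaling, 37 and 0 with the length trend removed, and 17 and 14 relative to the median member. Leaving out tumors 2 and 10, removing the largest rows from the totals, and the relative scale for the tumor comparison were chosen after the data were seen; the first gave 55 and the second 47 members higher, with 675 and 680 of all rows higher against 433. The causes were not tested. Of 702 fits of 27 named members under alternatives, 580 kept sign and side of the threshold, 71 lost the call, 47 gained it and 4 changed sign. All 76 members had reads in every library, the shallowest with 3892690 reads.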
